A study of Mus musculus with 7 samples.

Results

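The subunits of mitochondrial oxidative phosphorylation were examined in alpha cells, the glucagon-secreting cells of the pancreatic islet, sorted from mice. Members were chosen by gene symbol alone: the mitochondrially encoded mt-Nd, mt-Co, mt-Cytb and mt-Atp genes, the nuclear Ndufa, Ndufb, Ndufc, Ndufs, Ndufv, Uqcr and Atp5 genes, Cox4 to Cox8, and Sdha to Sdhd. The rule gave 111 of the 55536 genes in the count table, 13 mitochondrial and 98 nuclear, and 9 further symbols containing -ps were left out. The nuclear members comprised 41 genes of complex I, 8 complex I assembly factors (Ndufaf, which the Ndufa prefix takes in although they are not subunits), 4 of complex II, 8 of complex III, 19 of complex IV and 18 of complex V. Of these, 4 are annotated as processed pseudogenes: Ndufs6b, Ndufb4c and Ndufa11b among the complex I symbols and Cox6c2 among those of complex IV. Ndufa4 and Ndufa4l2 were counted with complex I by their symbols, although the Ndufa4 protein is known as a component of complex IV.

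Oxidative phosphorylation passes electrons from NADH and succinate through complexes I and II to coenzyme Q, then through complex III and cytochrome c to complex IV, which reduces oxygen. Complexes I, III and IV pump protons across the inner mitochondrial membrane, and complex V, the ATP synthase, uses the returning protons to make ATP. All of these except complex II hold subunits encoded in mitochondrial DNA beside nuclear ones, and in islet cells ATP production is tied to the electrical activity that precedes hormone release.

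The study asked how the homeodomain factor NKX2.2 regulates genes in alpha cells in vivo. Controls were Nkx2.2+/+;Gcg-iCre;Rosa26:tdTomato and knockouts (KO) were Nkx2.2fl/fl;Gcg-iCre;Rosa26:tdTomato (the design text writes Rosa25), so that both groups carried a Cre recombinase driven by the glucagon gene and a red reporter by whose fluorescence the cells were sorted. The mice were C57BL/6J per the design text, and the age is not given in the sources used here. RNA from 4 control and 3 KO libraries was sequenced after removal of ribosomal fragments, although another field of the labels calls the molecule polyadenylated RNA. The labels do not say whether the libraries came from separate animals, so p-values measure only the spread between these libraries, which may be technical. The remaining KO library has a column number that no sample label carries and is called the unnumbered KO library.

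Each library held 45483504 to 72456557 counts, with control 4 and the unnumbered KO library the deepest. Between 84.4% and 88.9% of counts from 1 to 10 were even. Counting both mates of a fragment gives such an excess and would make intervals computed from counts too narrow, and its part was not tested. Nkx2-2 had 8596 to 12300 normalized counts in controls and 7534 to 7758 in KO. Which part of the gene is deleted is not given in the sources used here, so this count does not test the deletion. The 10 alpha cell markers took 12.0% to 14.2% of counts in controls and 6.15% to 7.74% in KO, mostly through glucagon (Gcg, 11.4% to 13.5% against 5.87% to 7.39%). The beta cell list took 0.575% to 1.07% in controls and 0.909% to 1.57% in KO, and the delta cell list 0.377% to 0.696% and 0.643% to 1.18%. The duct list took 0.0614% to 0.076% and 0.0933% to 0.0944%. Its control means were 12160 normalized counts for Krt8, 9055 for Epcam, 8836 for Krt7 and 6802 for Krt18. Those of Spp1, Sox9, Krt19 and Cftr were 669, 267.2, 23.29 and 18.19. The duct share thus mainly follows Krt8, Epcam, Krt7 and Krt18 and was not taken as a measure of duct cells. In bulk RNA a change in the cells present and a change in RNA per cell cannot be told apart, and the part of these markers in the values below was not tested.

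Of the 13 mitochondrial genes, 7 were abundant and 6 held few counts, and 5 of those 6 have a nearly exact copy in the nuclear genome. On chromosome 1 of GRCm38 a run of unprocessed pseudogenes on the minus strand, between 24611535 and 24616197, repeats the stretch from the end of mt-Co1 to the first part of mt-Nd4. The first 90 bases of mt-Co2 (chrM:7013-7102, plus strand) and of its copy Gm28661 (chr1:24615476-24615565, minus strand) show why a short read cannot be placed between them. They are written in lower case throughout because no base differs, 5′ to 3′ from each gene's start, as GENCODE M21 transcripts on GRCm38.
mt-Co2: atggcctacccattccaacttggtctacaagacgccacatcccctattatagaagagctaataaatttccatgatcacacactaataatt
Gm28661: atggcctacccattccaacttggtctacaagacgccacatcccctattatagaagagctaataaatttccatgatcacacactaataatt

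A single difference separates mt-Nd3 (shown at chrM:9459-9491, plus strand) from Gm28438 (chr1:24613087-24613119, minus strand) over 345 aligned bases. It is T3C, counted from 1 at the first base of mt-Nd3, with the base of mt-Nd3 given first, and it is the capital in both sequences.
mt-Nd3: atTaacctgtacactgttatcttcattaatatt
Gm28438: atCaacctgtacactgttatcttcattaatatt

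Identity with a copy was 100% over 681 bases for mt-Co2, over 678 bases for mt-Atp6 (with Gm10925), over 783 bases for mt-Co3 (with Gm28437) and over 294 bases for mt-Nd4l (with Gm10222). Among all windows of 50 bases along each gene, an exact copy elsewhere among annotated transcripts was present for 100% of mt-Co2, 99.9% of mt-Co3, 99.5% of mt-Atp6, 98.8% of mt-Nd4l and 98.0% of mt-Nd3. The share was 62.2% for mt-Nd4, 51.1% for mt-Co1, 8.2% for mt-Nd2 and 7.6% for mt-Nd5, and it was 0 for mt-Nd1, mt-Nd6, mt-Cytb and mt-Atp8. The share depends on the window. With 100 bases it was 60.8% for mt-Nd4, 30.8% for mt-Co1, 3.2% for mt-Nd2 and 0 for mt-Nd5. These are the exact repeats that a read would have to span to be placed, and how reads with more than one match were counted is not given in the sources used here.

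The copied genes held few counts in every library. For mt-Co2, subunit II of complex IV, the normalized counts (counts divided by DESeq2 size factors) of controls 1 to 4, in that order, were 27.2, 40.1, 37.9 and 42.6, and those of KO 1, KO 2 and the unnumbered library were 48.9, 28.9 and 43.0. The libraries follow this order throughout. For mt-Co3, a further subunit of its catalytic core, they were 23.8, 17.7, 14.4 and 22.4 in controls and 20.5, 26.9 and 20.7 in KO. For mt-Atp6, the proton-channel subunit of complex V, they were 51.0, 64.9, 43.1 and 36.1 in controls and 46.0, 32.0 and 96.3 in KO. The groups overlapped for all of these genes.

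The complex I subunit genes mt-Nd3 and mt-Nd4l lie next to each other in the copied stretch. For mt-Nd3, normalized counts were 201.9, 212.3, 143.8 and 146.7 in controls and 207.3, 140.5 and 165.9 in KO, and for mt-Nd4l 11.3, 5.9, 7.84 and 10.8 in controls and 1.96, 15.5 and 9.63 in KO. The copies themselves held between 2 and 351 raw counts per library, so neither partner of a pair collected many counts. Counts of these 5 genes and of their copies are uncertain for that reason. The accessory complex V subunit gene mt-Atp8 was also nearly absent, at 3.4, 7.08, 7.84 and 5.06 in controls and 1.96, 1.03 and 7.41 in KO. Its best match of at least 100 aligned bases among annotated transcripts was only 81.4% identical, and that transcript had 0 counts in every library. That limit leaves out the end of mt-Atp8 (chrM:7927-7969), which is also the start of mt-Atp6 and so is repeated exactly in Gm10925. In the order of the copies the rest of mt-Atp8 would fall in the gap between Gm10925, which ends at 24614651, and Gm28661, which starts at 24614885. The genome sequence there was not used here. The part of shared sequence in the low counts of these 6 genes was not tested.

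**Figure D1:**
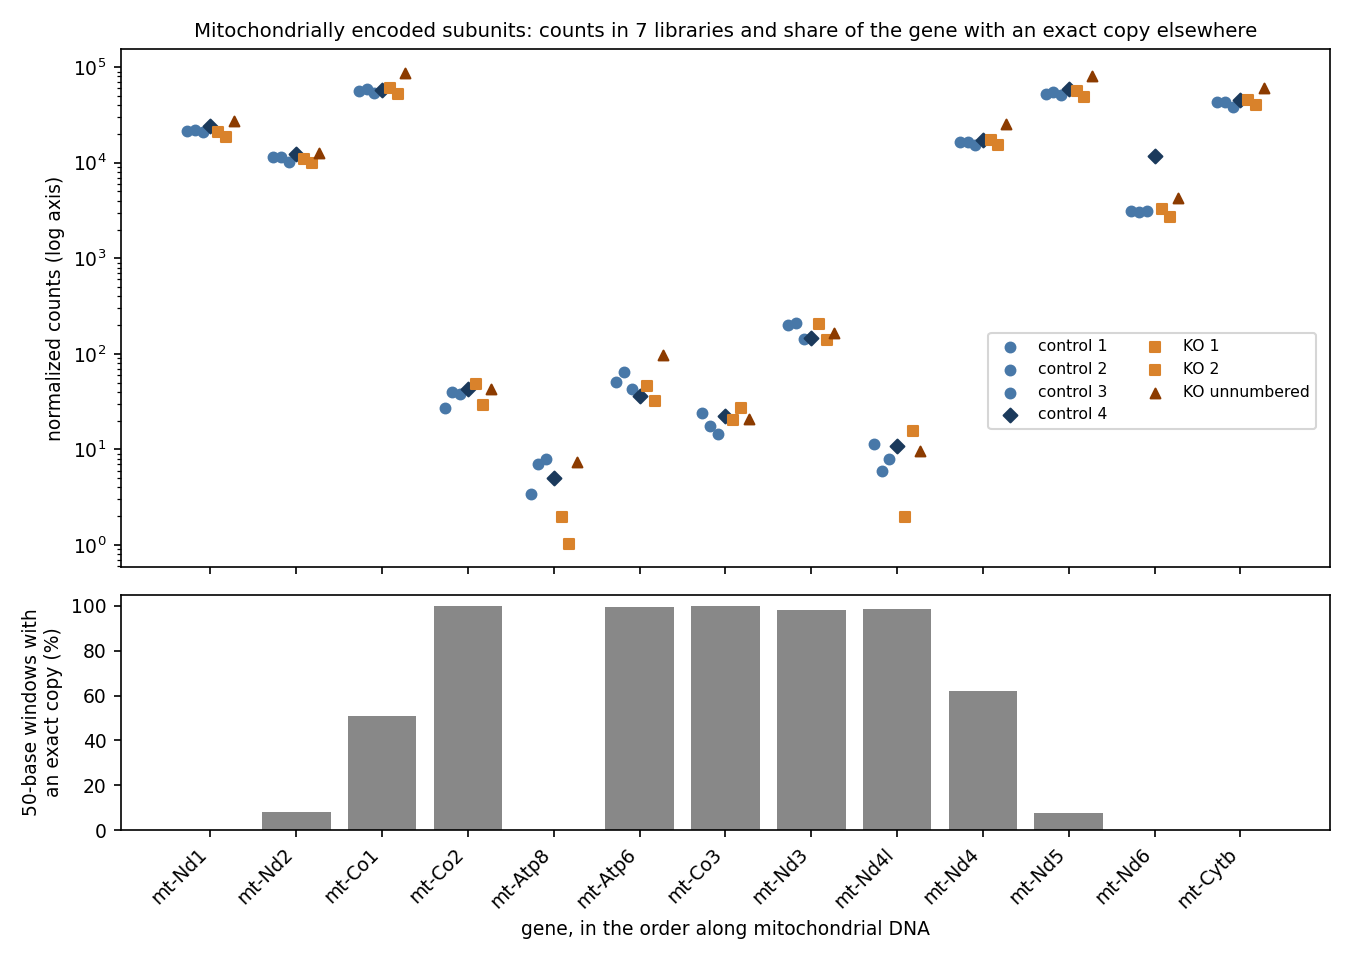
Normalized counts (log axis) of the 13 mitochondrial members in 7 libraries, with controls in blue (diamond, control 4) and KO in orange and brown (triangle, unnumbered library), above the percent of each gene's 50-base windows with an exact copy elsewhere. The 5 genes with at least 98.0% of windows copied lie at or below 212.3 normalized counts in every library, mt-Atp8 is low with 0% copied, and the triangle is highest for mt-Co1, mt-Nd4, mt-Nd5 and mt-Cytb.

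The remaining mitochondrial genes gave far higher counts, and their KO and control libraries overlapped. For mt-Co1, the catalytic subunit of complex IV, the controls had 56610, 59240, 53100 and 57950 normalized counts and KO had 61100, 52740 and 87330. Of these, 1 KO library lay below every control and the unnumbered one lay far above every other. The log2 fold change of KO over control was 0.24 (standard error, SE, 0.161, DESeq2 adjusted p 0.714, edgeR adjusted p 0.77), and without the unnumbered KO library it was 0.0022.

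The same library was highest for the other abundant genes on the heavy strand. For mt-Cytb, the cytochrome b of complex III, values were 42760, 43030, 38630 and 45600 in controls and 45820, 40050 and 60280 in KO, a log2 fold change of 0.20 (SE 0.145, DESeq2 adjusted p 0.787). For mt-Nd5, a proton-pumping subunit of complex I, they were 52830, 54650, 51010 and 58720 in controls and 56670, 49150 and 80770 in KO, a log2 fold change of 0.20 (SE 0.161, DESeq2 adjusted p 0.853). For mt-Nd4, also a pumping subunit, they were 16330, 16630, 15330 and 17350 in controls and 17460, 15300 and 25180 in KO, a log2 fold change of 0.23 (SE 0.162, DESeq2 adjusted p 0.746). In each case KO 1 and KO 2 lay in or near the control range and the unnumbered KO library carried the higher KO mean. Without that library the log2 fold changes of mt-Cytb, mt-Nd4 and mt-Nd5 were 0.01, -0.0056 and -0.04.

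The complex I genes mt-Nd1 and mt-Nd2, which lie closest to the ribosomal genes of mitochondrial DNA, had almost equal means in both groups. For mt-Nd1, values were 21660, 21880, 20730 and 24520 in controls and 20760, 18570 and 27240 in KO, a log2 fold change of -0.00032 (95% interval -0.28 to 0.28). For mt-Nd2, they were 11550, 11450, 10160 and 12260 in controls and 11070, 9876 and 12750 in KO, a log2 fold change of -0.02 (95% interval -0.25 to 0.22). Both intervals lie within a 1.5-fold change. The near equality rests on the unnumbered KO library, without which the log2 fold changes were -0.18 for mt-Nd1 and -0.12 for mt-Nd2.

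Relative to mt-Nd1, the abundant genes mt-Co1, mt-Nd4, mt-Nd5 and mt-Cytb of the heavy strand stood higher in KO. Counts of mt-Co1 per count of mt-Nd1 were 2.61, 2.71, 2.56 and 2.36 in controls and 2.94, 2.84 and 3.21 in KO. Counts of mt-Cytb per count of mt-Nd1 were 1.97, 1.97, 1.86 and 1.86 in controls and 2.21, 2.16 and 2.21 in KO. The ratios of mt-Nd4 (0.708 to 0.76 in controls, 0.824 to 0.924 in KO) and mt-Nd5 (2.39 to 2.5 in controls, 2.65 to 2.97 in KO) likewise did not overlap between the groups. The ratio of mt-Nd2, the neighbour of mt-Nd1, did overlap, at 0.49 to 0.533 in controls and 0.468 to 0.533 in KO. As counted, the difference was not particular to genes further along the strand. The ribosomal genes mt-Rnr1 and mt-Rnr2, which lie before mt-Nd1, also stood higher relative to it in every KO library than in every control. Ribosomal fragments were removed before sequencing, and the part of that removal in the counts of mt-Rnr1 and mt-Rnr2 was not tested. Normalized counts of mt-Rnr1 were 391900, 443600, 372900 and 427800 in controls and 524900, 415000 and 587200 in KO. These ratios do not depend on the scaling between libraries and do not rest on the unnumbered KO library alone, but they share a denominator, were chosen after the values were seen and were not tested.

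The only protein gene on the light strand of mitochondrial DNA, mt-Nd6 of complex I, had 3106, 3039, 3091 and 11650 normalized counts in controls and 3274, 2718 and 4301 in KO. Control 4 was 3.78 times the mean of the other controls, whereas for the 6 abundant heavy-strand genes it was 1.03 to 1.14 times that mean. The log2 fold change of mt-Nd6 was -0.61 (SE 0.616, DESeq2 adjusted p 0.935), and without control 4 it was 0.16. The proline tRNA gene mt-Tp, also on the light strand, had 16, 32, 10 and 199 raw counts in controls and 13, 16 and 45 in KO, again with control 4 the highest.

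Per kilobase of annotated exon, the mitochondrial members led the table of members, with control means of 37150 for mt-Cytb, 36720 for mt-Co1, 29770 for mt-Nd5, 23190 for mt-Nd1, 11910 for mt-Nd4, 10940 for mt-Nd2 and 10060 for mt-Nd6. When counts were instead divided by the number of 50-base windows without a copy, mt-Co1 came to 77600, mt-Cytb to 38820, mt-Nd5 to 33110, mt-Nd4 to 32690, mt-Nd1 to 24450, mt-Nd2 to 12510 and mt-Nd6 to 11110. That change moved mt-Co1 above mt-Cytb and brought mt-Nd4 beside mt-Nd5. The window scale was not computed for nuclear members, and it takes reads within copied windows as not counted, which is not known. It also depends on the window length chosen. Over annotated exon, the means of the 6 heavy-strand genes among these exceed the median nuclear member, 760 normalized counts per kilobase, by more than 10 times. The mean of mt-Nd6 rests on control 4 and was not set against it.

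Among nuclear members, no gene passed the test between KO and control. DESeq2 gave an adjusted p for 88 of the 98, and the other 10 had at most 26 counts in any library. Of the 88, 0 were called at an adjusted p under 0.05 in DESeq2 and 0 in edgeR, against 3.9% of all 19719 genes tested by DESeq2 (769 genes, 386 higher and 383 lower) and 1.05% of 19310 tested by edgeR. At an unadjusted p under 0.05, 6 of the 88 passed in DESeq2 and 6 in edgeR, against 11.3% and 10.5% of all genes tested. Of the 13 mitochondrial members 12 had an adjusted p, 0 were called by either tool and 0 had an unadjusted p under 0.05.

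The nuclear differences were small as well as uncalled. The median log2 fold change of the 88 was -0.07, beside 0.0071 for all genes tested. Of the 88, 66 were below 0 and 22 above, and of all genes tested 9630 were below and 10089 above. The 88 are not separate results: the unnumbered KO library was the lowest KO library for 73 of them. With library totals for scaling, the median over all genes was 0.108 and that of the nuclear members 0.03, a shift common to all genes. Under both scalings the nuclear median lay below that of all genes. That order rests on the unnumbered KO library, without which the nuclear median was -0.0053 and that of all genes -0.0174. The median SE of the 88 was 0.167. In 66 of them the 95% interval of the fold change lay within 1.5-fold in either direction, which is 75.0% against 39.8% of all genes tested, and in 84 it lay within 2-fold, against 56.1% of all genes. The intervals of abundant genes are narrower, and the median control level per kilobase was 760 for these members and 115 for all genes tested. For the 12 mitochondrial members the median was 0.16 (SE 0.121 to 1.04), and the interval lay within 1.5-fold for 6.

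**Figure D2:**
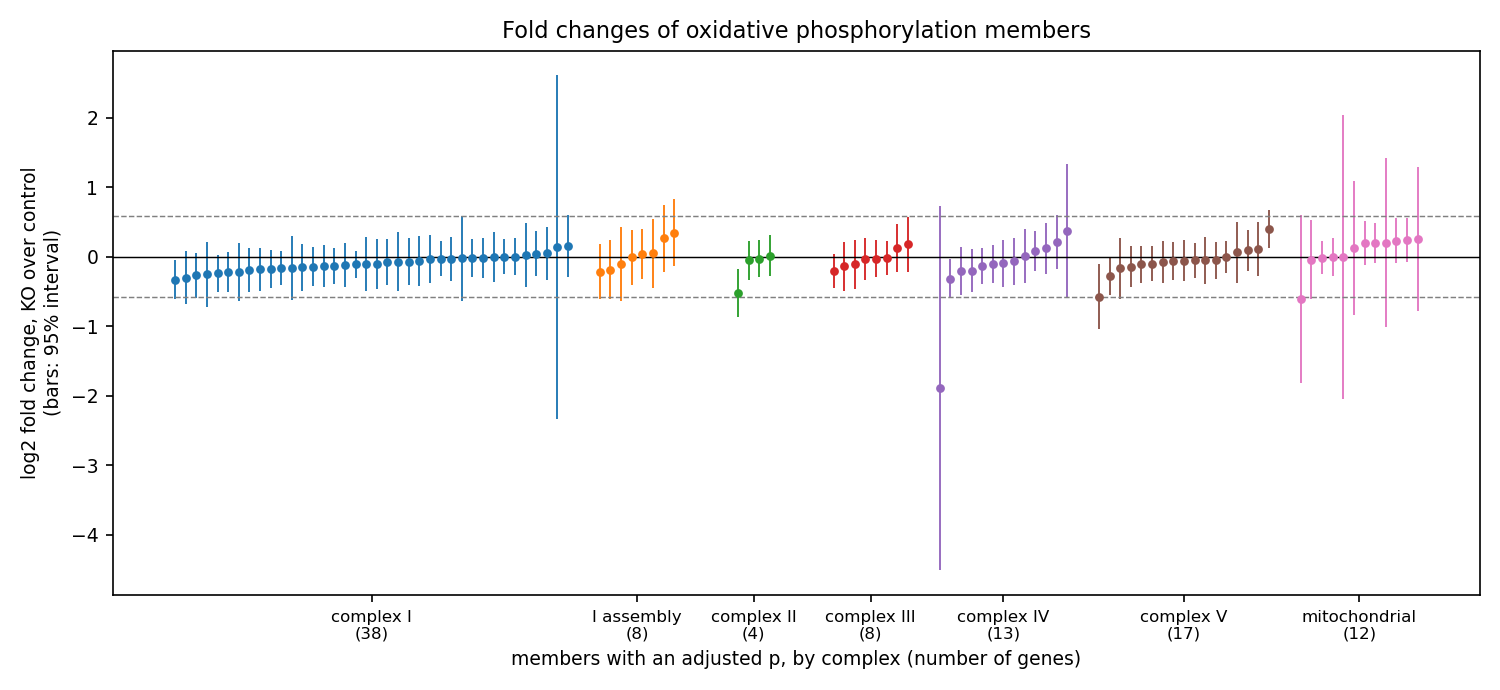
Log2 fold change of KO over control for the 100 members with an adjusted p, ordered by size within each complex, with 95% intervals as bars and dashed lines at a 1.5-fold change. Most points lie close to 0, and the intervals furthest from it belong to Sdhd (-0.52) in complex II, and to Atp5k (-0.58) and Atp5g1 (0.41) in complex V. The widest bars belong to genes with few counts, such as Cox6b2.

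Complex I, the NADH dehydrogenase, held 38 genes with an adjusted p, whose median log2 fold change was -0.10, with 1 unadjusted p under 0.05. That gene was Ndufs6, an accessory subunit of the peripheral arm, with 720.4, 642.8, 661.5 and 719.1 normalized counts in controls and 569.1, 557.7 and 514.1 in KO. All KO libraries lay below all controls, and KO over control was -0.33 on the log2 scale (SE 0.141, DESeq2 adjusted p 0.252, edgeR adjusted p 0.347). The complex I gene with the largest positive difference, Ndufa1, had 869.1, 1125, 1056 and 879.5 in controls and 1205, 1376 and 715.6 in KO, which overlapped (log2 fold change 0.16, SE 0.227).

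The highest complex I level per kilobase was that of Ndufb11, a membrane-arm subunit, at 3122 in controls. Its normalized counts were 2945, 3140, 3066 and 2190 in controls and 2784, 3155 and 2409 in KO, with control 4 and the unnumbered KO library the lowest of their groups. Ndufa4 had 833.9, 687.6, 902.1 and 748.7 in controls and 753.9, 757.0 and 663.0 in KO. These overlapped, and the log2 fold change was -0.13 with a 95% interval of -0.44 to 0.18. The core subunits that take electrons from NADH were also close to equal, with a log2 fold change of -0.0012 (SE 0.129) for the flavoprotein Ndufv1 and -0.11 (SE 0.0991) for the iron-sulfur subunit Ndufs1.

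The 8 complex I assembly factors had a median log2 fold change of 0.02. Ndufaf6 had 118.0, 133.3, 146.4 and 126.5 normalized counts in controls and 169.2, 156.0 and 174.8 in KO, all KO above all controls, with a log2 fold change of 0.35 (SE 0.248, DESeq2 adjusted p 0.771). Ndufaf2, whose exons are covered by exons of the opposite strand over 65.6% of their length, had 266.6, 305.5, 313.8 and 242.8 in controls and 249.3, 240.6 and 238.5 in KO (log2 fold change -0.21, SE 0.204). Ndufaf8 had the highest level per kilobase of this set, 481 in controls, and a log2 fold change of -0.0078 (SE 0.203).

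Within complex II, succinate dehydrogenase, a single subunit stood apart. Sdhd (chr9:50596357-50603812, minus strand, GRCm38), a membrane anchor that helps bind heme and coenzyme Q, had 2002, 1920, 1768 and 1279 normalized counts in controls and 1301, 1273 and 1076 in KO. The KO libraries lay below controls 1 to 3, and control 4 fell between KO 1 and KO 2. The log2 fold change was -0.52 (SE 0.178, 95% interval -0.87 to -0.17), and the adjusted p was 0.0796 in DESeq2 and 0.232 in edgeR, so the gene was not called. Without control 4 the log2 fold change was -0.64 and the DESeq2 adjusted p 0.000211, and it passed the threshold under 4 further settings, which include scaling by counts outside mitochondrial, glucagon and ribosomal-fragment genes (0.019). Leaving out any other single library gave DESeq2 adjusted p values of 0.166 to 0.307.

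The other complex II subunits were close to equal in the groups. The flavoprotein gene Sdha, the highest of the complex per kilobase at 1966 in controls, had 8611, 8023, 9155 and 6662 normalized counts in controls and 8538, 9256 and 6850 in KO (log2 fold change 0.02, SE 0.148). The iron-sulfur subunit Sdhb and the other anchor, Sdhc, had log2 fold changes of -0.02 (SE 0.139) and -0.05 (SE 0.144). Counts of Sdhd per count of Sdha were 0.233, 0.239, 0.193 and 0.192 in controls and 0.152, 0.138 and 0.157 in KO, which did not overlap. The ratio of Sdhd to Sdhb was 1.14 to 1.38 in controls and 0.819 to 0.957 in KO, and that to Sdhc 1.0 to 1.27 and 0.8 to 0.882. On each of these ratios control 4 lay above every KO library. They were chosen after the values were seen and were not tested.

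Complex III, the cytochrome bc1 complex, varied little: all 8 nuclear members had an interval within 1.5-fold, the median log2 fold change was -0.03 and no gene had an unadjusted p under 0.05. The largest negative difference was that of Uqcrh, the hinge protein that associates with cytochrome c1, with 1879, 2112, 1945 and 1893 normalized counts in controls and 1742, 1885 and 1479 in KO (log2 fold change -0.20, SE 0.127). Uqcr10, a small subunit, had 406.2, 442.3, 491.6 and 328.1 in controls and 450.8, 432.7 and 531.9 in KO (log2 fold change 0.18, SE 0.203). Both sets overlapped. Uqcr11 was highest per kilobase, at 2117 in controls, and the Rieske iron-sulfur subunit Uqcrfs1 had a log2 fold change of -0.03 (SE 0.134).

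Complex IV, cytochrome c oxidase, held 13 genes with an adjusted p, and their median log2 fold change was -0.10. Cox6b1, a subunit on the intermembrane face, had 1140, 1248, 1392 and 1169 normalized counts in controls and 1026, 1093 and 869.0 in KO. The KO libraries lay below every control, with a log2 fold change of -0.31 (SE 0.145, DESeq2 adjusted p 0.327, edgeR adjusted p 0.371). Cox8a, the highest of the complex per kilobase at 3921, had 2321, 2392, 2544 and 2451 in controls and 2221, 2664 and 1882 in KO, which overlapped (log2 fold change -0.11, SE 0.139).

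Several complex IV subunits exist as ubiquitous and tissue-restricted forms, and alpha cells in both groups held mainly the ubiquitous ones. Of Cox4i counts, 99.9% or more were Cox4i1 in every library, and Cox4i2, the form tied to lung and low oxygen, had at most 0.0642%. The testis-associated Cox6b2 took 0 to 2.53% of Cox6b counts, with control 4 the highest, and the muscle form Cox7a1 took 0 to 0.693% of Cox7a counts, again highest in control 4. No count of Cox8b, the muscle form, was seen in any library, which allows a share of up to 0.154% of Cox8 counts in the library with the fewest of them (3 counts of the total). Cox7b2 and Cox8c appeared in control 4 only, at 0.124% and 0.0589%. Intervals and this limit cover counting error only and take each count as a separate fragment. Counting both mates would make the intervals too narrow and the limit too low.

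Of Cox6a counts, 90.2% to 97.0% were Cox6a1. The rest were Cox6a2, the heart and muscle form of subunit VIa, which had the largest share among these tissue-restricted forms. It took 3.04%, 4.75%, 7.62% and 4.92% of Cox6a counts in controls and 9.76%, 4.51% and 6.76% in KO. The Wilson 95% intervals of control 1 (2.27% to 4.07%) and control 3 (6.44% to 9.0%) did not meet. Those of KO 2 (3.63% to 5.59%) and KO 1 (8.48% to 11.2%) did not meet either. These intervals take each count as a separate fragment and would be too narrow if both mates were counted. The groups overlapped. In normalized counts Cox6a2 had 48.8, 84.9, 164.7 and 66.5 in controls and 174.1, 80.6 and 99.3 in KO (log2 fold change 0.38, SE 0.495). Without KO 1 the log2 fold change was -0.02. Within Cox7a, the supercomplex factor Cox7a2l (also known as SCAF1) took 70.5% to 79.1% in controls and 79.4% to 81.6% in KO, and Cox7a2 the rest apart from Cox7a1. The shares are of counts and are not corrected for the lengths of the genes.

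**Figure D3:**
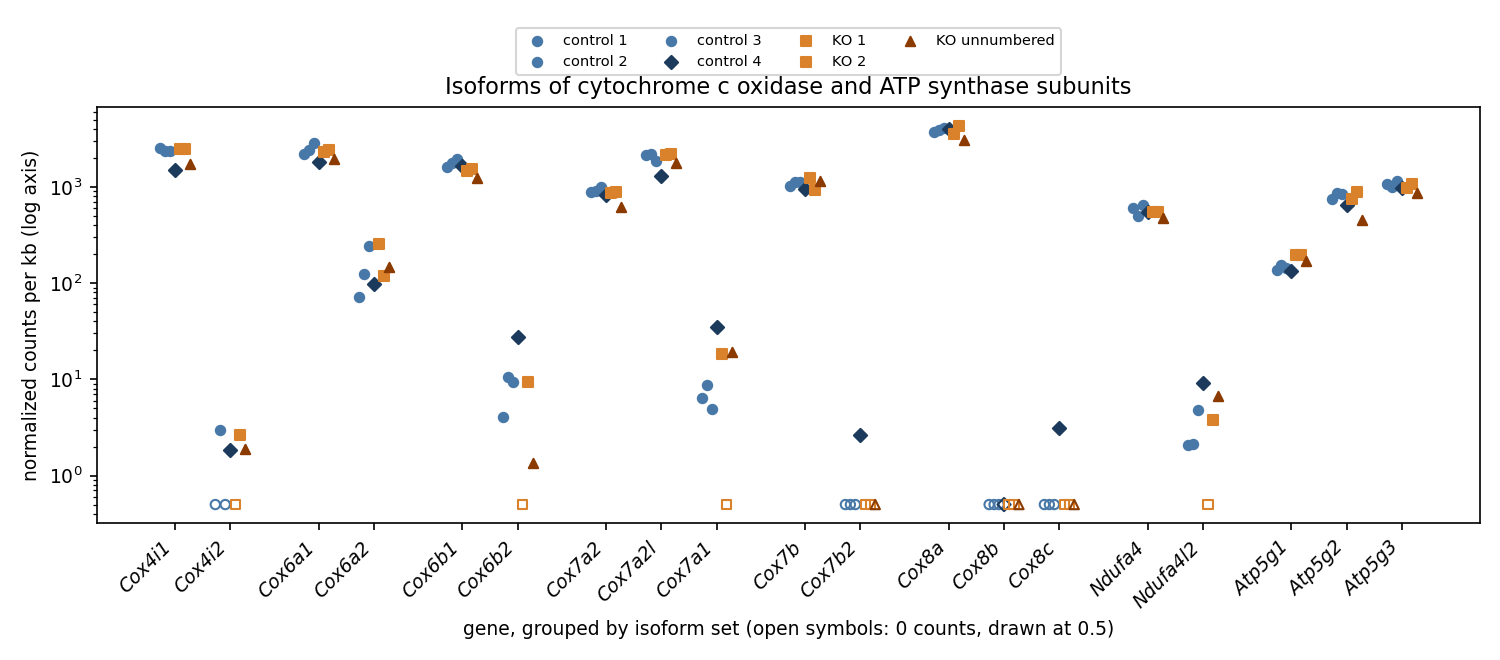
Normalized counts per kilobase (log axis) of isoform sets of complex IV, of Ndufa4 and of the ATP synthase c subunit in 7 libraries, with open symbols for 0 counts drawn at 0.5. The ubiquitous forms Cox4i1, Cox6a1, Cox6b1, Cox7b and Cox8a lie above their tissue-restricted counterparts in every library, and Cox8b is 0 throughout.

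Complex V, the ATP synthase, held the nuclear genes with the highest level and with the lowest adjusted p. Atp5a1 and Atp5b, the alpha and beta subunits of its catalytic head, had control means of 4709 and 3226 per kilobase. Atp5a1 had 15410, 15930, 15730 and 11970 normalized counts in controls and 16310, 18140 and 12750 in KO, and Atp5b 14340, 14090, 14870 and 11370 in controls and 12920, 14310 and 10900 in KO. Both overlapped, with log2 fold changes of 0.09 (SE 0.152) and -0.10 (SE 0.136).

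Atp5g1 (chr11:96068852-96075670, minus strand, GRCm38) is 1 of 3 genes for the c subunit, whose ring turns in the membrane as protons pass; the 3 encode the same mature protein behind different import sequences. It had 670.5, 757.2, 708.6 and 651.9 normalized counts in controls and 968.1, 962.6 and 839.4 in KO. Every KO library lay above every control, with a log2 fold change of 0.41 (SE 0.139, 95% interval 0.13 to 0.68). The adjusted p was 0.077 in DESeq2 and 0.181 in edgeR, so this gene was not called either. The DESeq2 adjusted p was 0.00138 with library totals for scaling and 0.043 without both control 4 and the unnumbered KO library. Without a single library it was 0.108 to 0.536. Library totals moved the median log2 fold change of all genes from 0.0071 to 0.108, and 695 of the 993 calls were then higher in KO. The smaller adjusted p under that scaling is therefore not separate support for a rise of this gene.

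As a share of the counts of the 3 c-subunit genes, Atp5g1 made up 15.6%, 17.2%, 15.2% and 17.0% in controls (16.3% ± 1.01, SD, n = 4) and 22.1%, 20.1% and 24.0% in KO (22.1% ± 1.99, SD, n = 3). For this gene the Wilson 95% interval, with each count taken as a separate fragment, reached at most 1.22 percentage points from a library's share. The groups did not overlap. Atp5g3 remained the largest contributor, at 49.7% to 54.9% in controls and 49.1% to 54.4% in KO. Atp5g2 made up 28.1% to 33.1% in controls and 28.8%, 30.7% and 21.6% in KO, with the unnumbered library the lowest. Per kilobase of annotated exon, Atp5g3 (1051) and Atp5g2 (778.7) stood above Atp5g1 (141.9), whose annotated exons are the longest. The log2 fold changes of Atp5g3 and Atp5g2 were -0.10 (SE 0.128) and -0.17 (SE 0.225). The comparison of shares was chosen after the values were seen and was not tested.

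Of the small membrane subunits, Atp5k (subunit e, which supports pairing of ATP synthases) had 627.4, 580.3, 750.4 and 783.4 normalized counts in controls and 514.3, 559.8 and 308.2 in KO. The groups did not overlap, although KO 2 and control 2 were close, and the log2 fold change was -0.58 (SE 0.238, DESeq2 adjusted p 0.216, edgeR adjusted p 0.373). Without the unnumbered KO library it was -0.36. Atp5e, the epsilon subunit of the central stalk, had 1780, 1920, 2073 and 1740 in controls and 1698, 1648 and 1311 in KO, with a log2 fold change of -0.28 (SE 0.14, DESeq2 adjusted p 0.44). In all, 4 nuclear members lay lower in every KO library than in every control (Atp5e, Atp5k, Cox6b1 and Ndufs6) and 2 higher (Atp5g1 and Ndufaf6), of 88. Among all genes tested 5.6% lay lower and 5.76% higher, so that these counts are no larger a share of the members than of the other genes.

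**Figure D4:**
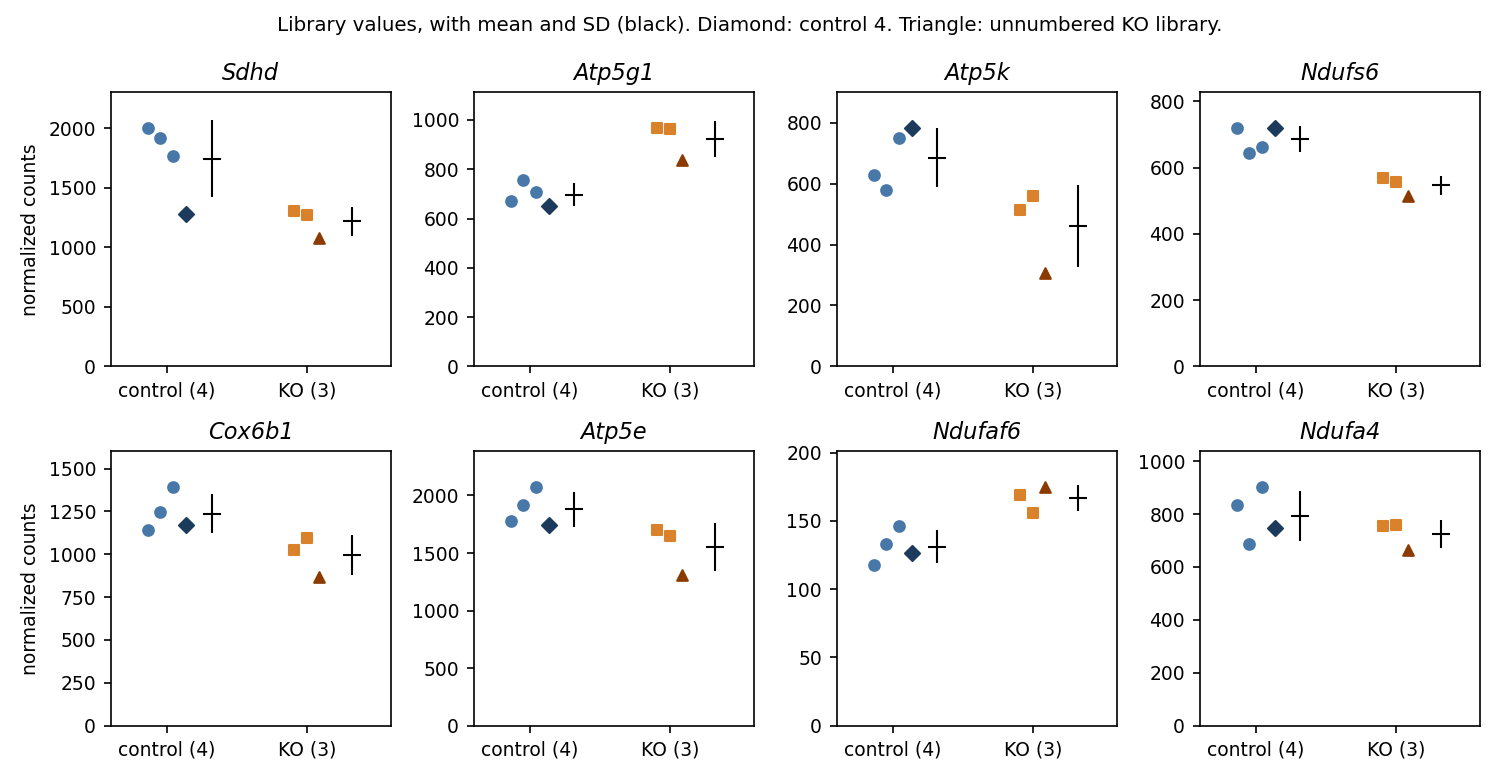
Normalized counts of 8 nuclear members in 4 control and 3 KO libraries, with the mean and SD in black, a diamond for control 4 and a triangle for the unnumbered KO library. Control 4 of Sdhd lies at 1279, among the KO libraries, while Atp5g1 is higher in all KO libraries (839.4 to 968.1) than in all controls (651.9 to 757.2).

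The libraries themselves differed in how the nuclear and mitochondrial members stood to each other. The 98 nuclear members together took 0.312%, 0.301%, 0.307% and 0.266% of counts in controls and 0.311%, 0.31% and 0.292% in KO. The 13 mitochondrial members took 0.368%, 0.366%, 0.323% and 0.436% in controls and 0.402%, 0.34% and 0.617% in KO. Control 4 and the unnumbered KO library, which are the deepest, were each the lowest of their group for nuclear members and the highest for mitochondrial ones.

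Most nuclear members followed this order. Control 4 was the lowest control for 66 of the 88 nuclear members, and the unnumbered KO library was the lowest KO library for 73. The median log2 deviation of the nuclear members from the median library was -0.221 in control 4 and -0.25 in the unnumbered KO library, against 0 to 0.097 in the other 5. For 6 abundant heavy-strand genes it was 0.525 in the unnumbered KO library, whereas control 4 (0.0909) was close to KO 1 (0.0612). For mt-Co1, control 4 lay below control 2. In the unnumbered KO library mt-Co1 was 1.53 times, mt-Nd4 1.54 times, mt-Nd5 1.53 times, mt-Cytb 1.4 times, mt-Nd1 1.39 times and mt-Nd2 1.22 times the mean of KO 1 and KO 2, and the ribosomal RNA genes mt-Rnr1 and mt-Rnr2 were 1.25 and 1.27 times that mean. Depth moved with these differences, and its part was not tested.

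**Figure D5:**
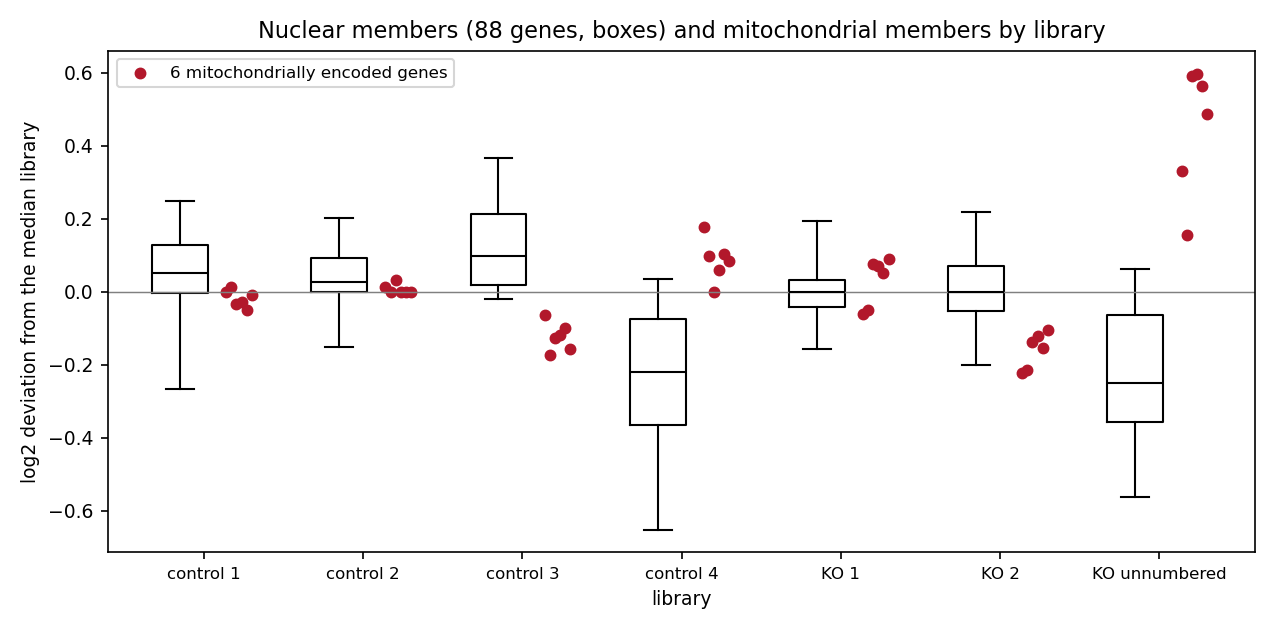
Log2 deviation of each member from its median over 7 libraries, with boxes for 88 nuclear members (line, median; box, quartiles; whiskers, 5th to 95th percentile) and points for the 6 abundant heavy-strand genes. Control 4 and the unnumbered KO library have the lowest boxes (medians -0.221 and -0.25), and the points of the unnumbered KO library lie far above its box.

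Other genes of the pathway gave a like picture. Of 15 electron carriers, coenzyme Q synthesis genes and further complex III genes tested, 0 were called, with a median log2 fold change of -0.03, and cytochrome c (Cycs) was at -0.03 and cytochrome c1 (Cyc1) at -0.22. Of 20 genes tested for the expression and copying of mitochondrial DNA 0 were called, with Tfam, which packages mitochondrial DNA, at 0.10 and the mitochondrial RNA polymerase Polrmt at -0.08. Of 20 genes of the tricarboxylic acid cycle and pyruvate entry 0 were called (median -0.03), and of 10 carriers and coupling proteins tested 0 were called (median -0.08). At an unadjusted p under 0.05, DESeq2 had 0, 1, 2 and 1 genes in these lists, and edgeR 0, 2, 2 and 1. Over all genes tested, DESeq2 called 3.9% and edgeR 1.05%, and 11.3% and 10.5% had an unadjusted p under 0.05.

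Of 39 assembly factors tested, DESeq2 called 0 higher and 1 lower, against 1.96% and 1.94% of all genes tested. It was Higd1a, a hypoxia-inducible protein that binds complex IV, with 1596, 1085, 1822 and 1350 normalized counts in controls and 894.7, 1053 and 772.7 in KO. All KO libraries lay below all controls, and KO over control was -0.69 on the log2 scale (SE 0.201, DESeq2 adjusted p 0.0198, edgeR adjusted p 0.153). The DESeq2 call was lost without control 1, control 3, KO 1 or the unnumbered KO library (adjusted p 0.104, 0.139, 0.155 and 0.134), and without both control 4 and the unnumbered KO library it was 0.0502.

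Of 16 regulators of mitochondrial biogenesis tested, DESeq2 called 1 higher and 0 lower, against 1.96% and 1.94% of all genes tested. It was Myc, a growth-related transcription factor, with 521.9, 692.3, 373.9 and 318.7 normalized counts in controls and 908.4, 965.7 and 768.2 in KO. The groups did not overlap, and KO over control was 0.89 on the log2 scale (SE 0.265, DESeq2 adjusted p 0.0258, edgeR adjusted p 0.182). The DESeq2 call was lost without control 1, control 3, KO 1 or KO 2 (adjusted p 0.0551, 0.141, 0.2 and 0.18). The coactivator Ppargc1a and the nuclear respiratory factor Nrf1 had log2 fold changes of -0.34 and 0.04 and were not called.

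Promoters of the members shared short motifs that the rule did not use. RefSeq promoters (GRCm38.p6, 250 bases before to 50 after the start) were matched to 74 nuclear symbols, which stand for 75 of the 98 nuclear members since Atp5o names a pair of entries, with 79 promoters. The nuclear respiratory factor 1 motif GCGCANGCG, searched on both strands, was present in 29.1% of these and in 6.25% of all 32851 promoters. The ETS-family motif CCGGAAG was present in 22.8% against 8.86%, and the YY1 motif AAGATGGCG in 10.1% against 1.4%. The NK2-family motif TNAAGTG, the kind that NKX2.2 binds, was present in 10.1% of member promoters and 11.5% of all. Sdhd held both the nuclear respiratory factor 1 and the ETS motif, and Atp5g1 held none of the 4. These are matches of letters in a window and are not shown to be sites.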

How the data were processed

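RNA was measured in 4 control and 3 KO libraries of sorted alpha cells. The authors deposited whole-number counts per gene, made with STAR and featureCounts on mm10 per the submitters' processing notes; strand, mate and multiple-match settings are not given in the sources used here. All 55536 gene identifiers were found in GENCODE M21 (GRCm38), which gave positions, exon lengths and transcript sequences, and no row lacked a gene. Members and gene lists were chosen with earlier results of these data known.

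The counts of all genes were fitted in R 4.3.3 by the Wald test of DESeq2 1.42.0 (default filters, no covariate), as the design text states, with Benjamini-Hochberg adjustment over all genes tested and a threshold of 0.05. The quasi-likelihood test of edgeR 4.0.16 was the first alternative. Log2 fold changes are KO over control, ± is the SD, and 95% intervals are 1.96 SE to either side. Other alternatives were filters, scalings, left-out libraries and a replicate block. The scripts were tested on simulated data. Named with values were the mitochondrial members, mt-Co1 and Ndufa4, and in each complex the highest level per kilobase and the largest rise and fall among genes with a mean of at least 100 normalized counts, isoform sets and called pathway genes. Members named beyond these (Atp5b, Atp5e, Ndufs1, Ndufv1, Sdhb, Sdhc, Uqcrfs1, genes in the closing section and the other pathway genes) were chosen after their values were seen. At depths of 45483504 to 72456557 counts the number of libraries limits the precision of abundant members, and depth also limits members with few counts.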

Additional observations from a re-analysis of the deposited data

Results flagged for a closer look

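In 7 of 96 results tested over the 4 controls, 1 control lay further from the others, as a share of the controls' whole range, than Dixon's 95% critical value allows. Chance alone gives about 4.8 such results in 96. The results are not independent, since control 4 was the lowest control for 66 of the 88 nuclear members. The number of flags was therefore not tested against chance. In all 7 the library set apart was control 4. It was high for mt-Nd6, where the gap made up 0.992 of the range. It was low for Ndufa11 (0.924), Ndufc1 (0.919), Ndufa6 (0.877) and Ndufb7 (0.834) of complex I, and for Atp5a1 (0.870) and Atp5f1 (0.858) of complex V. For Ndufa11, a membrane-arm subunit, control 4 had 560.1 normalized counts against 1048 to 1089 in the other controls, and for Ndufc1 it had 357.0 against 508.3 to 521.6. The opposite strand carries exons over 6.41% of the exon length of Ndufa11.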

How the results depend on the processing

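Over all genes, edgeR called 203 (78 higher, 125 lower) against 769 in DESeq2, and leaving out single libraries gave 430 to 891 calls, the fewest without KO 1. Nuclear members called were 0 in the main DESeq2 fit and 0 to 1 without single libraries. With library totals 1 of 86 tested was called (Atp5g1), beside 993 of all 17431 genes tested. With totals outside mitochondrial, glucagon and ribosomal-fragment genes 1 of 86 was called (Sdhd), beside 857 of all 18563 genes tested. Without both deep libraries 2 were called (Atp5g1 and Sdhd). The calls over all genes in that fit are not given here, so these 2 are not read as a result about the members. The median of mitochondrial members was 0.259 with library totals, 0.00599 without both deep libraries, and -0.0302 to 0.246 without single libraries.

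Controls 1 and 2 share a number with KO 1 and 2, and no label says that the number marks a pair. A fit of these 4 libraries with the replicate block called 1 nuclear member (Sdhd), with a mitochondrial median of -0.0378. The same 4 libraries without the block, an alternative chosen after seeing the data, also gave 1, with a median of -0.0263. The calls over all genes in both fits are not given here, so these member counts are not read as a result. With the block mt-Co1 was -0.031, mt-Cytb -0.00398, mt-Nd4 -0.0141 and mt-Nd5 -0.0281, and without it -0.0277, -0.000879, -0.0112 and -0.0248. The DESeq2 calls of Higd1a and Myc were lost with the block (adjusted p 0.493 and 0.101) and in the same libraries without it (0.297 and 0.0601).

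Other log2 fold changes that changed sign were not called on either side. With library totals, which moved the median of all genes from 0.0071 to 0.108, mt-Nd1 was 0.11, mt-Nd2 0.0896 and mt-Nd3 0.0635, a shift common to all genes. With TMM factors mt-Nd1 was 0.0146, and with the ribosomal-free totals Sdha was -0.0205. Without both deep libraries Uqcr10 was -0.0178 and mt-Nd5 -0.000606. With each of the 6 numbered libraries left out in turn, mt-Nd1 was -0.0336 to 0.11, mt-Nd2 -0.0672 to 0.0667, mt-Nd3 -0.201 to 0.0811 and Sdha -0.078 to 0.0791. Ndufa1 was -0.0348 (without KO 2) to 0.233, Cox6a2 -0.0175 (without KO 1) to 0.821, and mt-Nd6 -0.792 to 0.158 (without control 4), while without the unnumbered KO library mt-Nd1 was -0.177, mt-Nd2 -0.119, mt-Nd6 -0.805, Sdha 0.131, Ndufa1 0.391, mt-Nd4 -0.00559 and mt-Nd5 -0.0403. The cause of the changes under other settings than library totals was not tested.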

Other observations

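Control 4 had 31024 genes with a count, against 23150 to 25873 in the other libraries, the highest of these in the unnumbered KO library. Its part in the values above was not tested. Control 4 also departed from the other libraries for single members. Ndufab1, the mitochondrial acyl carrier protein that is a subunit of complex I, had 590.4 normalized counts in control 4 and 1658 to 1934 in the other controls. The ATPase inhibitory factor gene Atpif1, which limits reverse action of complex V, had 5778, 6014, 6235 and 1954 in controls and 5602, 5291 and 5055 in KO. Cox4i1 had 2339 in control 4, against 3641 to 3972 in the other controls and 2686 to 3800 in KO. These genes were chosen after their values were seen.

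The symbol Atp5o stands for a pair of gene entries on chromosome 16, a longer entry that spans neighbouring genes, with 0 counts in every library, and a shorter one, with control and KO means of 544.6 and 568.4 normalized counts. Nnt, the transhydrogenase gene that is partly deleted in the C57BL/6J strain, had 46.5, 47.2, 30.1 and 122.1 normalized counts in controls and 52.8, 33.0 and 117.1 in KO, highest in control 4 and the unnumbered KO library.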
